A study of Mus musculus with 6 samples.

Results

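The 10 genes described here are markers of reactive gliosis and retinal stress, namely Gfap, Vim, Lcn2, Edn2, Serpina3n, Stat3, Fgf2, Cp, A2m and Socs3. They were taken by symbol from the 52636 genes of the deposited count table, and all 10 had at least 1 UMI in the 6 retinas. A UMI (unique molecular identifier) marks 1 captured RNA molecule, so copies made by PCR count once. The question addressed was whether the retina lacking Dram2, a lysosomal membrane protein, shows gliosis at 12 months. Single cells came from the retinas of 12-month-old male C57BL/6J mice, with 3 retinas labelled Dram2 wt/wt and 3 labelled Dram2 ko/ko, and no other allele, agent or treatment is named in the labels. Replicate 3 of each genotype was labelled batch 1, and replicates 1 and 2 were labelled batch 2. The constitutive ko allele lacks exon 4, while the 10x Genomics 3′ v2 method counts the 3′ end of a transcript, so the Dram2 counts (27.4 to 56.0 CPM over the 6 retinas) are no check of which retina is ko/ko. CPM are the UMIs of a gene per 1000000 UMIs of the summed cells.

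Of the 46375 cells, 45746 carried a cell type from the study, of which 942 were glia, 42359 photoreceptors, 2083 interneurons, 246 mesenchymal cells and 116 RPE (retinal pigment epithelium) cells. Photoreceptors held 75.4% of all UMIs, interneurons 15.2% and glia 5.55%. Each retina held 87 to 269 glia with 145343 to 453224 UMIs in sum, and 5961 to 8318 photoreceptors with 2892834 to 4675272 UMIs. The median glial cell held 1404 to 1793 UMIs and the median photoreceptor 397 to 523. Mitochondrial genes took 0.405% to 0.720% of UMIs in the batch 2 retinas, against 3.22% and 2.75% in the batch 1 wt/wt and ko/ko retinas. Over genes, counts of ko/ko retina 1 gave a pairwise chi-square per degree of freedom of 11.8 to 17.3 against the other batch 2 retinas. Those retinas gave 1.67 to 3.86 among themselves, so ko/ko retina 1 stood apart from its batch over the genes compared. All 12 Müller glia markers, among them Rlbp1, Glul and Aqp4, were found in the glia, with a summed level of 51664 to 66144 CPM per retina. Rod markers summed to as much as 15327 CPM in the same glia, and 12 of 12 rod markers were present in each of the 5 types.

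Müller glia are the main glia of the retina and span its whole thickness. After injury or photoreceptor stress they enlarge, fill with intermediate filament protein and secrete defence proteins, a response called reactive gliosis. GFAP is normally confined to retinal astrocytes, which line the inner surface, and appears in Müller glia when they react. Stressed photoreceptors are known to release endothelin 2, encoded by Edn2. Cytokines that act through gp130 activate STAT3 in glia, which in turn raises Gfap and the feedback inhibitor Socs3.

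STAT3 binds DNA at the palindrome TTCNNNGAA, which reads the same on both strands. RefSeq promoter windows (GRCm38.p6, 250 bases before to 50 after a gene's start) were found for 9 of the 10 genes, and 2 of the 9 held the palindrome, against 9.55% of 27025 genes with such a window. Both are textbook STAT3 target genes, and their stretches are shown because STAT3 and these targets are set side by side below. The palindrome is in capitals, and a match of letters is not a measured binding site. It starts 2 bases before the RefSeq start in Gfap and 154 bases before it in Socs3.
Gfap promoter, chr11:102897184-102897212, minus strand: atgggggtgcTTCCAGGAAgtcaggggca
Socs3 promoter, chr11:117969502-117969530, minus strand: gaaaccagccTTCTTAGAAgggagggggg

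Across the 5 cell types the 10 genes fell into different patterns. By mean CPM, Gfap, Serpina3n and Cp were highest in glia, Edn2 and Lcn2 in photoreceptors, A2m in RPE cells, and Socs3 and Stat3 in mesenchymal cells. Lcn2 overlapped with mesenchymal cells, where ko/ko retinas 1 and 3 reached 25.6 and 25.7 CPM from 2 UMIs each. A count of 0 allows up to 26.3 to 38.5 CPM in mesenchymal and 83.4 to 176 CPM in RPE cells. Low genes with 0 UMIs in these types, such as Gfap, Edn2 and Serpina3n, are therefore not ranked against them. Vim was high in both mesenchymal cells and glia. Fgf2 was low in glia, photoreceptors and interneurons, and had 1 UMI in mesenchymal and 0 in RPE cells. The study drew the types from these same counts, so differences between types are a description. Counts were low for most of the genes, with 1517 UMIs of Cp, 1508 of Vim, 891 of Stat3, 265 of Lcn2, 219 of Socs3, 191 of Fgf2, 67 of Gfap, 52 of A2m, 49 of Edn2 and 10 of Serpina3n in all cells together. Between genotypes the filter on low counts let through 3 of the 10 genes in glia, 6 in photoreceptors, 1 in interneurons, 2 among mesenchymal and 0 among RPE cells, and 0 of those tested were called by edgeR at an adjusted p under 0.05. The share of all tested genes called was 0% in each type as well. The study itself, by limma-voom, reported genes that differed by genotype in interneurons, mesenchymal and RPE cells only. The 10 genes were not among those. With batch as a covariate edgeR called 21 genes in mesenchymal and 3 in RPE cells (limma-voom 35 and 5), and with the replicate number as a block it called 26 and 4, still with 0 of the 10 genes among them and 0 genes in the other types. Before adjustment, p was under 0.05 for 51 of 4130 genes tested in glia (69 in limma-voom, 15 in DESeq2) and for 109 of 13053 in photoreceptors (103 in limma-voom, 50 in DESeq2). These are smaller shares than the 0.05 that independent tests without any difference would give. Whether the tests ran conservative was not tested. The main fit held no batch term. Among the fits of the 10 genes by genotype within a cell type, only Cp in photoreceptors had an unadjusted p under 0.05. In 3 of the 36 pairs of gene and cell type with any UMI, the 3 ko/ko retinas did not overlap the 3 wt/wt retinas. These were Stat3 in glia, Cp in photoreceptors and Socs3 in mesenchymal cells. Over all genes the same held for 5.81% of 107666 such pairs, and for 7.78% of the 58049 pairs with at least 10 UMIs, so nothing is read from the 3 pairs about these genes as a set. A two-sided exact permutation test of 3 against 3 retinas cannot go below 0.10, and over the 36 pairs the adjusted exact p was at least 0.90. The labels do not say whether each retina came from a mouse of its own, so p-values measure the spread between these 6 samples.

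**Figure D1:**
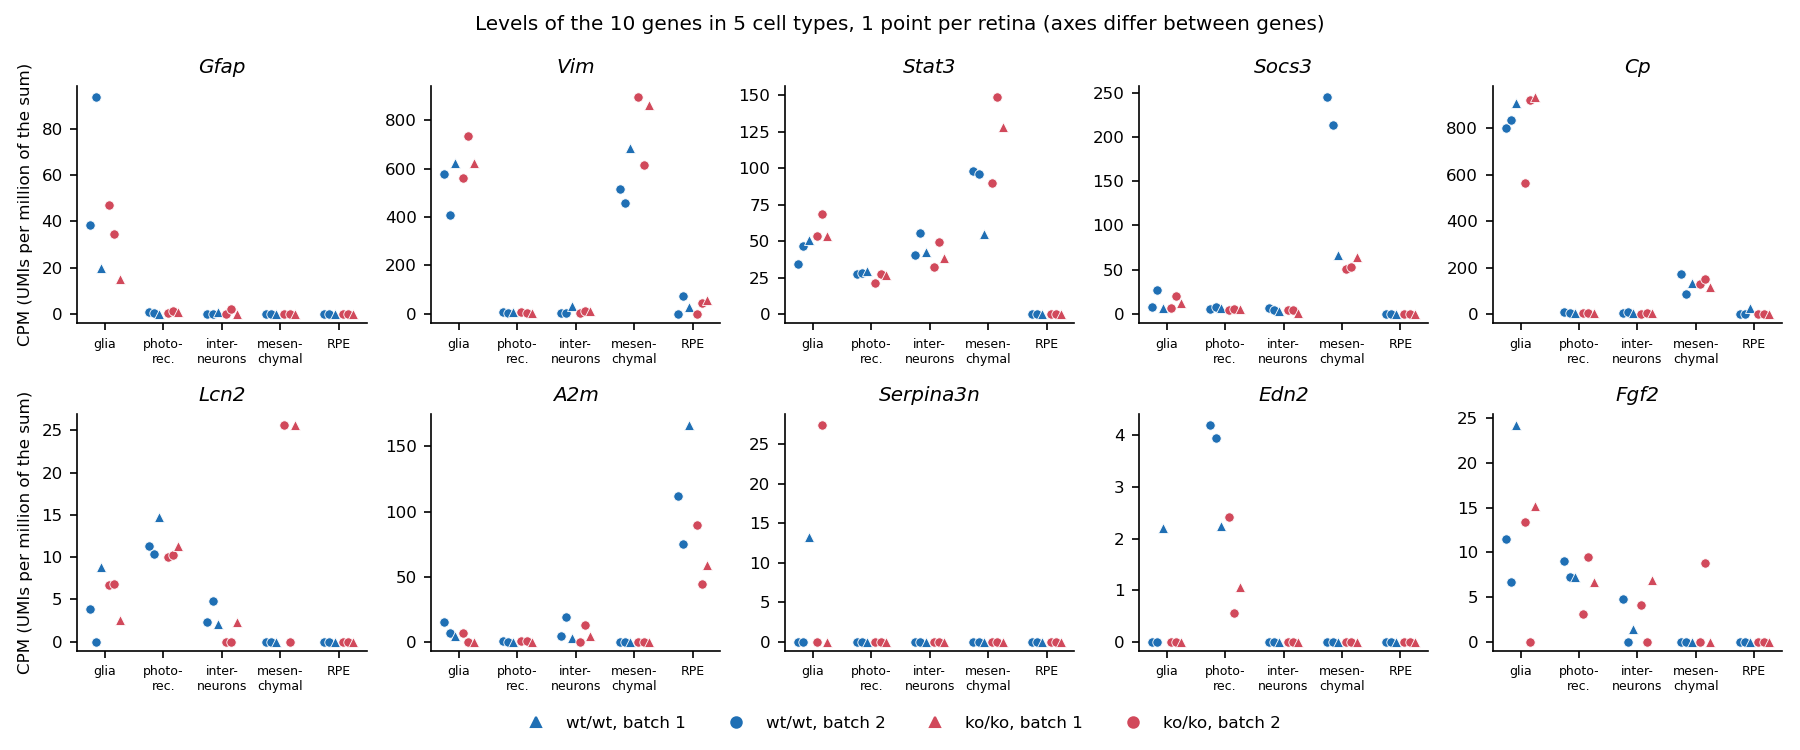
Levels of the 10 genes in each of the 5 cell types. The y axis gives CPM, each point is 1 retina, colour marks genotype and shape marks batch. Gfap lies between 15.2 and 93.7 CPM in glia and at 0 in mesenchymal and RPE cells, whereas Edn2 is found almost wholly in photoreceptors.

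Gfap (chr11:102887336-102900912, minus strand, GRCm38, overlapping Gm26668 on the other strand) encodes the glial fibrillary acidic protein, the intermediate filament by which gliosis is usually read. In glia it measured 38.2, 93.7 and 19.9 CPM in wt/wt retinas 1 to 3 and 46.9, 34.4 and 15.2 CPM in ko/ko retinas 1 to 3, from 5 to 14 UMIs each. The genotypes overlapped, and both batch 1 retinas lay below the 4 batch 2 retinas. The mean was 50.6 ± 38.5 CPM for wt/wt and 32.2 ± 15.96 CPM for ko/ko (mean ± SD, n = 3 each, two-sided exact permutation p = 0.60). The difference of ko/ko from wt/wt was -25.3 CPM in batch 2 and -4.63 CPM in batch 1. Gfap was too rare for the filter on low counts in glia, so edgeR gave it no value there.

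Gfap was captured in 21 of 942 glial cells, namely 4 of 171, 5 of 87 and 3 of 269 for wt/wt and 2 of 102, 4 of 88 and 3 of 225 in ko/ko. The share was 1.12% to 5.75% for wt/wt and 1.33% to 4.55% in ko/ko, and exact 95% binomial intervals of all 6 retinas overlapped. Photoreceptors, which should lack Gfap, had it in 0% to 0.0534% of cells, at a median depth of 397 to 523 UMIs against 1404 to 1793 in glia. With each cell thinned to 1000 UMIs the expected share in glia was 2.36% ± 1.12 for wt/wt and 1.54% ± 0.654 for ko/ko (mean ± SD, n = 3 each, exact permutation p = 0.40, adjusted p = 1.00 over the 10 genes). The difference of -0.82 points became -0.27 without wt/wt retina 2 and -1.39 without wt/wt retina 3, and thinned to 500 UMIs it turned to 0.022 points. In photoreceptors thinned alike it was 0% to 0.314%. Only cells with at least 1000 UMIs enter the thinned share, which left 67 to 215 glia per retina.

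The glial cells with Gfap carried genes of astrocytes. They made up 2.23% of glial cells and held 39.5% of the UMIs of an astrocyte list (Pax2, Pdgfra, S100b, Aldh1l1, Gja1 and Slc7a10). The list summed to 3553 CPM in the 21 cells with Gfap, with a 95% Poisson interval for counting error of 2964 to 4225, and to 129 CPM (112 to 149) in the 921 cells without it. S100b, a calcium-binding protein of astrocytes, was detected in 16 of the 21 cells (76.2%) and in 61 of the 921 (6.62%). Pdgfra, the receptor that retinal astrocytes use to follow growth factor from neurons, was detected in 10 of 21 (47.6%) and 3 of 921 (0.326%). Pax2, a transcription factor of the astrocyte lineage, was found in 2 of the 21 cells and 0 of the 921. Gja1 and Slc7a10 had at most 1 UMI in all glia, and Aldh1l1 was about as frequent in both groups (14.3% and 11.4%). Müller glia markers were not absent from the cells with Gfap but summed to 38278 CPM, against 60657 CPM in the other glia. Pericyte markers were higher in the cells with Gfap as well, at 860 CPM (585 to 1221) against 435 CPM (402 to 470). Endothelial markers were lower there, at 416 CPM against 865 CPM. Both groups had a similar depth, with a median of 1664 and 1691 UMIs per cell. The cells were split by Gfap in the same libraries, so the contrast is given without a test.

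**Figure D2:**
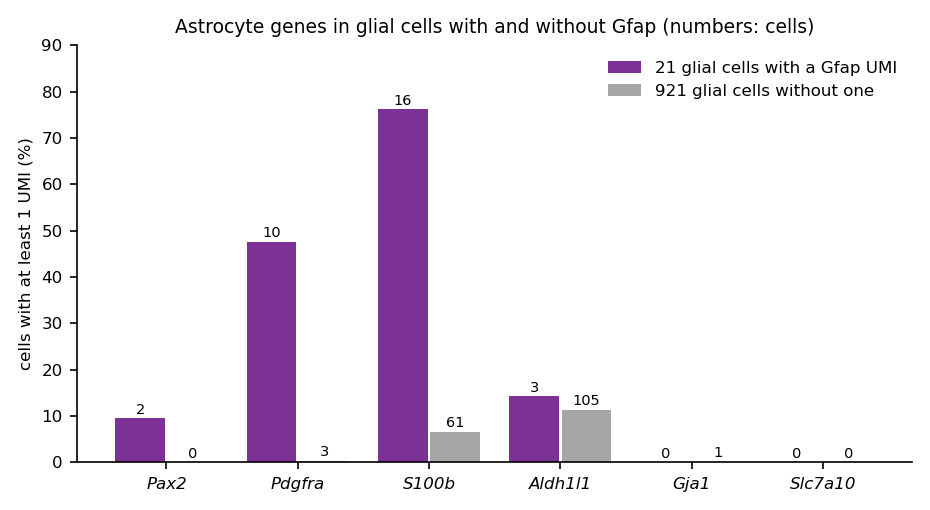
Share of glial cells with at least 1 UMI of each of 6 astrocyte genes. The y axis gives percent of cells, with purple bars for the 21 glial cells with Gfap, grey bars for the 921 without, and the number of cells above each bar. S100b and Pdgfra stand at 76.2% and 47.6% in the cells with Gfap, against 6.62% and 0.326% in the others.

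Of the 21 cells with Gfap, 18 held a UMI of the astrocyte list, and part of the Gfap lay in cells with few or no such UMIs. The glial cells with fewer than 3 astrocyte UMIs held 3, 2 and 2 of the 10, 14 and 9 glial Gfap UMIs in wt/wt retinas 1 to 3. In ko/ko retinas 1 to 3 they held 0, 1 and 1 of 7, 5 and 6. Set against the UMIs of these same cells this was 11.7, 14.1 and 4.49 CPM for wt/wt and 0, 7.01 and 2.58 CPM in ko/ko. Values in ko/ko were lower within each batch, but no retina exceeded 3 UMIs and the 0 of ko/ko retina 1 allows up to 20.5 CPM, so no difference was detectable at this depth. Gfap cells of wt/wt retina 2 held 1, 1, 2, 3 and 7 UMIs, and the highest ko/ko cell held 4 UMIs, in retina 1. Elsewhere Gfap had 14 UMIs in photoreceptors, 2 in interneurons and 0 in mesenchymal and RPE cells.

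Vim (chr2:13573927-13582826, plus strand) encodes vimentin, the filament partner of GFAP that resting Müller glia also contain. In glia it measured 577, 408 and 624 CPM for wt/wt and 563, 736 and 624 CPM in ko/ko retinas 1 to 3. The lowest and the highest values were both from batch 2, and the 2 batch 1 retinas differed by 0.226 CPM. The mean was 536 ± 114 CPM for wt/wt and 641 ± 87.9 CPM for ko/ko (mean ± SD, n = 3 each), a difference that edgeR put at 0.22 ± 0.24 (log2 fold change ± SE, adjusted p = 1.00). Its 95% interval runs from a ratio of 0.815 to 1.66, and leaving out 1 retina moved the log2 value to between 0.061 (without ko/ko retina 2) and 0.33 (without ko/ko retina 1). Vim was detected in 525 of 942 glial cells (55.7%), with 1 UMI in 292 of them and at most 17. Thinned to 1000 UMIs, 39.5% ± 7.25 (SD, n = 3) of wt/wt and 44.5% ± 1.35 (SD, n = 3) of ko/ko glia held Vim (exact permutation p = 0.40). This difference of 4.97 points became 1.66 without wt/wt retina 2 and 8.84 without wt/wt retina 3. The same thinned share was 0.114% to 0.580% in photoreceptors. Of the 21 cells with Gfap, 15 also held Vim.

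Vim was as high in mesenchymal cells, at 515, 459 and 684 CPM for wt/wt and 896, 614 and 860 CPM in ko/ko. The genotypes overlapped, and edgeR put the difference at 0.47 ± 0.30 (log2 fold change ± SE, adjusted p = 0.72), or 0.30 without wt/wt retina 2. Endothelial cells and pericytes contain vimentin, and the mesenchymal cells with more endothelial than other markers held 72.0% of the mesenchymal Vim UMIs. The share of mesenchymal cells led by endothelial markers was 35.7% ± 8.68 for wt/wt and 55.7% ± 10.7 for ko/ko (mean ± SD, n = 3 each, exact permutation p = 0.10, the smallest possible). Within these cells Vim measured 875 ± 54.6 CPM for wt/wt and 1005 ± 125 CPM for ko/ko (mean ± SD, n = 3 each, exact permutation p = 0.10). The part of this difference in cell make-up in the level of Vim was not tested.

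**Figure D3:**
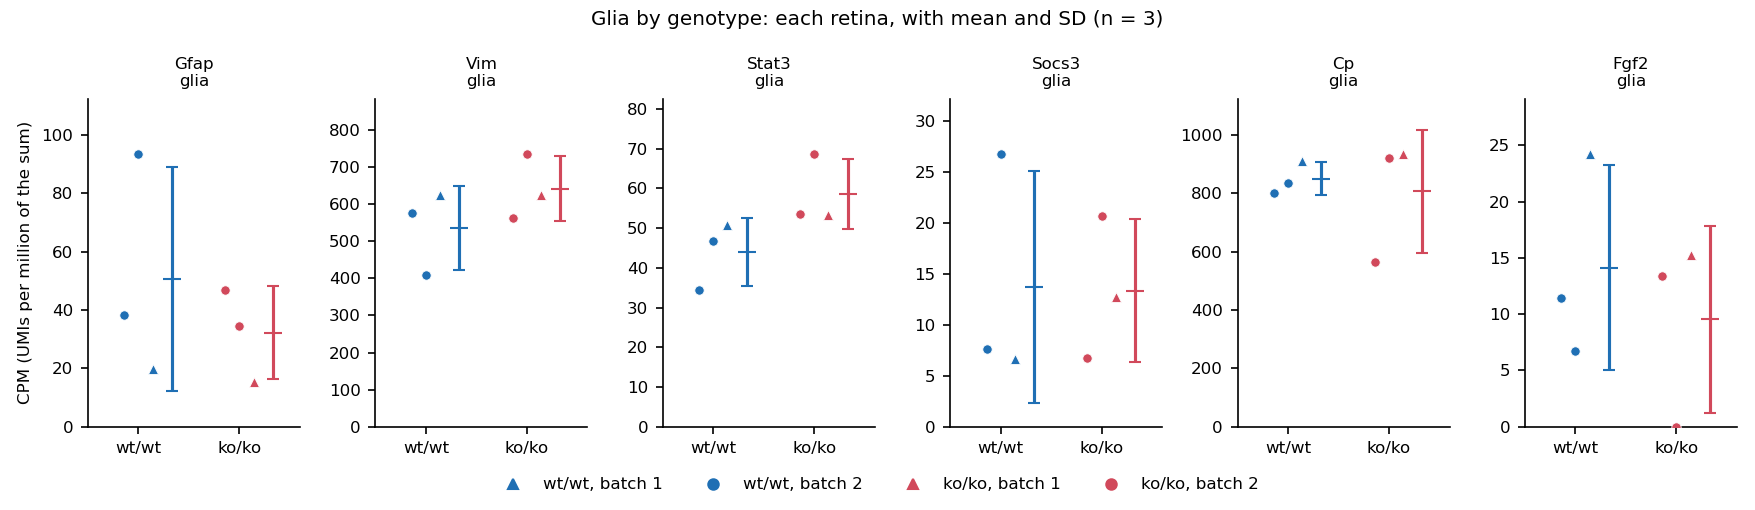
Levels of 6 genes in glia by genotype. The y axis gives CPM from 0, points are single retinas with shape for batch, and the bar beside them is the mean with SD (n = 3). Gfap, Vim, Socs3, Cp and Fgf2 overlap between genotypes, and Stat3 lies between 34.4 and 50.7 CPM for wt/wt and between 53.3 and 68.8 CPM in ko/ko.

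Stat3 (chr11:100885098-100939540, minus strand, overlapping Stat5a on the other strand) encodes the transcription factor that gp130 cytokines activate. In glia it measured 34.4, 46.9 and 50.7 CPM for wt/wt and 53.6, 68.8 and 53.3 CPM in ko/ko retinas 1 to 3. Every ko/ko value lay above every wt/wt value, by 2.54 CPM at the closest pair, which were the 2 batch 1 retinas. The mean was 44.0 ± 8.56 CPM for wt/wt and 58.6 ± 8.87 CPM for ko/ko (mean ± SD, n = 3 each, exact permutation p = 0.10). The difference was 0.34 ± 0.39 (log2 fold change ± SE, edgeR adjusted p = 1.00), with an interval from a ratio of 0.709 to 2.26, and was 0.19 without ko/ko retina 2. These sums held only 7 to 23 UMIs per retina. After thinning, the share of glia with Stat3 was 4.05% ± 0.543 for wt/wt and 5.24% ± 0.931 for ko/ko (mean ± SD, n = 3 each, exact permutation p = 0.20), and the genotypes overlapped. Stat3 was not a glial gene in particular, since photoreceptors had 28.5 ± 1.06 CPM for wt/wt and 25.3 ± 3.33 CPM for ko/ko (mean ± SD, n = 3 each), and interneurons 46.1 ± 8.06 and 40.1 ± 8.71 CPM. Its levels in mesenchymal cells, glia and interneurons overlapped over the 6 retinas, and those in photoreceptors lay below all of them.

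Socs3 (chr11:117966079-117970047, minus strand) encodes the inhibitor that STAT3 induces to switch the pathway off. It had only 18 UMIs in glia, with 7.64, 26.8 and 6.62 CPM for wt/wt and 6.70, 20.6 and 12.7 CPM in ko/ko. The genotypes overlapped, at 13.7 ± 11.4 and 13.3 ± 6.99 CPM (mean ± SD, n = 3 each, exact permutation p = 0.90). In photoreceptors Socs3 measured 6.49 ± 1.22 CPM for wt/wt and 5.26 ± 0.962 CPM for ko/ko (mean ± SD, n = 3 each), a difference that edgeR put at -0.27 ± 0.32 (log2 fold change ± SE, adjusted p = 1.00) and that ranged from -0.41 (without wt/wt retina 1) to -0.11 (without ko/ko retina 1).

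Socs3 was highest in mesenchymal cells, where it measured 245, 213 and 66.2 CPM for wt/wt and 51.2, 52.6 and 64.2 CPM in ko/ko. The wt/wt counts were 20, 20 and 6 UMIs and the ko/ko counts 4, 6 and 5 UMIs. The 2 batch 2 wt/wt retinas were high, while wt/wt retina 3 lay 1.97 CPM above ko/ko retina 3, the other batch 1 retina. The means were 175 ± 95.6 and 56.0 ± 7.14 CPM (mean ± SD, n = 3 each, exact permutation p = 0.10), and the gene had too few counts for the edgeR fit by genotype. Of the 61 UMIs, 52 (85.2%) came from 88 cells led by microglia markers such as C1qa, Cx3cr1 and P2ry12. All 13 microglia markers were present in these cells. Microglia-led cells made up 53.8%, 49.0% and 35.1% of wt/wt and 17.5%, 34.0% and 19.4% of ko/ko mesenchymal cells, that is 46.0% ± 9.71 and 23.6% ± 9.04 (mean ± SD, n = 3 each, exact permutation p = 0.10). Within the microglia-led cells Socs3 was 350 ± 211 CPM for wt/wt and 240 ± 186 CPM for ko/ko (mean ± SD, n = 3 each, exact permutation p = 0.50). The difference of ko/ko from wt/wt within them was -334 CPM in batch 2 and 338 CPM in batch 1. The batch 1 value rests on 4 UMIs in 6 cells of ko/ko retina 3 and 3 UMIs in 13 cells of wt/wt retina 3. Whether the lower share of microglia-led cells accounts for the lower Socs3 was not tested.

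Cp (chr3:19957054-20009145, plus strand, overlapping Hps3 on the other strand) encodes ceruloplasmin, a copper-carrying ferroxidase that Müller glia make and increase under stress. Glia held 88.0% of its UMIs, at 802, 837 and 911 CPM for wt/wt and 563, 922 and 936 CPM in ko/ko retinas 1 to 3. Only ko/ko retina 1 stood apart, below the other 5, the same retina that stood apart from its batch over the genes compared. The means were 850 ± 55.9 and 807 ± 212 CPM (mean ± SD, n = 3 each), a difference that edgeR put at -0.11 ± 0.24 (log2 fold change ± SE, adjusted p = 1.00), with an interval from a ratio of 0.641 to 1.33. Without ko/ko retina 1 the log2 value turned to 0.12, and without ko/ko retina 2 it was -0.26. Cp was detected in 653 of 942 glial cells, and 55.6% ± 4.37 of wt/wt and 55.2% ± 8.23 of ko/ko glia held it after thinning (mean ± SD, n = 3 each, exact permutation p = 1.00), a difference of -0.30 points that ranged from -3.21 to 4.41 with 1 retina left out. Of all glia 69.3% held Cp, and so did all 7 glial cells with Lcn2, 20 of the 22 with Fgf2 and all 4 with Serpina3n. The same held for 6 of 7 cells with A2m, 60 of 71 with Stat3, 14 of 17 with Socs3, 390 of 525 with Vim and 15 of 21 with Gfap. These counts were not matched for depth.

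In photoreceptors Cp was far lower, at 8.10, 4.25 and 5.31 CPM for wt/wt and 2.77, 2.23 and 3.64 CPM in ko/ko. No ko/ko value reached the lowest wt/wt value. The log2 fold change was -0.97 (standard error 0.40, unadjusted p = 0.0411, adjusted p = 1.00 by edgeR), and the means were 5.89 ± 1.99 and 2.88 ± 0.710 CPM (mean ± SD, n = 3 each). Of 13053 genes tested there, 109 had an unadjusted p under 0.05. Müller glia markers, which photoreceptors should lack, summed to 358 to 923 CPM for wt/wt and 407 to 633 CPM in ko/ko photoreceptors, and 0 of 11 of them tested had a positive log2 fold change, with a median of -0.23. The part of glial RNA in the Cp counts of photoreceptors was not tested. The test of the difference between the glial and the photoreceptor fold change gave 0.86 for Cp on the log2 scale (standard error 0.35, unadjusted p = 0.0146, adjusted p = 1.00 by edgeR), or 0.55 without wt/wt retina 1 and 0.57 without ko/ko retina 2.

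Lcn2 (chr2:32384633-32388252, minus strand) encodes lipocalin 2, an iron-trapping protein of reactive glia and neutrophils. In glia it had 8 UMIs in 7 of 942 cells (0.743%), 5 UMIs for wt/wt and 3 in ko/ko, and 0 to 8.83 CPM per retina. Photoreceptors held 90.9% of its 265 UMIs, beside 75.4% of the UMIs of all genes, in 239 of 42359 cells (0.564%), which were shallower than glia. Their levels lay above those of glia, at 11.3, 10.3 and 14.8 CPM for wt/wt and 10.0, 10.3 and 11.3 CPM in ko/ko. The genotypes overlapped (log2 fold change -0.17, standard error 0.25, adjusted p = 1.00 by edgeR, and 0.0071 without wt/wt retina 3). These UMIs were spread thinly, since 262 cells of all types held them and no cell held more than 2. Mesenchymal cells had 4 UMIs of Lcn2, all in cells led by endothelial markers, and the 3 wt/wt retinas were at 0, where a count of 0 allows up to 32.0 to 36.8 CPM.

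Serpina3n (chr12:104406729-104414329, plus strand) encodes a secreted serine protease inhibitor that is a general marker of reactive astrocytes. Its 10 UMIs were all in 4 glial cells, with 6 UMIs in 3 cells of wt/wt retina 3 and 4 UMIs in 1 cell of ko/ko retina 2. The other 4 retinas had 0 UMIs in glia, which allows up to 7.61 to 20.1 CPM, so no difference was detectable at this depth. The 4 cells held 54573.7 CPM of Müller glia markers, and all 4 held Vim. Limits and intervals of this kind cover counting error only.

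A2m (chr6:121635376-121679227, plus strand) encodes alpha-2-macroglobulin, a broad protease inhibitor. It was highest in RPE cells, at 112, 75.2 and 167 CPM for wt/wt and 89.4, 44.4 and 58.6 CPM in ko/ko, from 1 to 6 UMIs per retina. The genotypes overlapped (exact permutation p = 0.20, n = 3 each). Interneurons held 26 of its 52 UMIs, with 0 to 8 per retina, and glia 8, with 7 for wt/wt and 1 in ko/ko. In glia the genotypes overlapped (exact permutation p = 0.30, n = 3 each). The counts of 0 in ko/ko retinas 2 and 3 allow up to 20.6 and 7.61 CPM there, so no difference was detectable at this depth. Over all cells A2m was 2.55, 2.74 and 2.12 CPM for wt/wt and 1.15, 1.83 and 1.07 CPM in ko/ko, without overlap (exact permutation p = 0.10). These values rest on 10, 11 and 12 UMIs in wt/wt and 4, 8 and 7 UMIs in ko/ko. The share of all genes without overlap is given only for sums within cell types, so nothing is read from this. In a sum over all cells, fewer cells of a type and less RNA per cell cannot be told apart. RPE cells, where it was highest, numbered 25, 25 and 23 in wt/wt and 17, 16 and 10 in ko/ko, which did not overlap either, and their part in the lower A2m over all cells was not tested.

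Edn2 (chr4:120161206-120167360, plus strand) encodes endothelin 2, the photoreceptor-derived stress signal to Müller glia. Photoreceptors held 98.0% of its UMIs, beside 75.4% of all UMIs. They had 13, 13 and 8 UMIs in wt/wt (4.21, 3.95 and 2.24 CPM) and 7, 2 and 5 UMIs in ko/ko (2.42, 0.557 and 1.07 CPM). Values in ko/ko were lower in each batch, but ko/ko retina 1 exceeded wt/wt retina 3. The means were 3.46 ± 1.07 and 1.35 ± 0.962 CPM (mean ± SD, n = 3 each, exact permutation p = 0.20), and Edn2 had too few counts for the edgeR fit by genotype. Among the other genes of the endothelin system, Ece1, which cuts the precursor to active endothelin, was the highest in glia at 67.2 ± 29.6 CPM for wt/wt and 45.0 ± 10.3 CPM for ko/ko (mean ± SD, n = 3 each), and edgeR put the difference at -0.48 on the log2 scale (adjusted p = 1.00). Edn1 and Ece2 had 14 UMIs each in glia.

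Fgf2 (chr3:37348346-37410108, plus strand, overlapping Gm43439 on the same strand and Nudt6, Fgf2os and Gm42923 on the other) encodes basic fibroblast growth factor, which protects photoreceptors and rises in many stressed retinas. Gm43439 had 94 UMIs in all cells against 191 of Fgf2, and how reads in the shared stretch were assigned makes the Fgf2 counts uncertain. Photoreceptors held 79.6% of the Fgf2 UMIs, close to their 75.4% of all UMIs, at 9.07, 7.29 and 7.26 CPM for wt/wt and 3.11, 9.47 and 6.63 CPM in ko/ko. Both the lowest and the highest values were ko/ko retinas of batch 2, so the genotypes overlapped (-0.25 ± 0.40 on the log2 scale in edgeR, adjusted p = 1.00, with 0.077 without ko/ko retina 1 and -0.61 without ko/ko retina 2). In glia it had 23 UMIs, at 11.5, 6.69 and 24.3 CPM for wt/wt and 13.4, 0 and 15.2 CPM in ko/ko. Both batch 1 retinas lay above the 4 batch 2 retinas. The mean over 6 retinas was 11.8 ± 8.19 CPM in glia and 7.14 ± 2.27 CPM in photoreceptors (mean ± SD, n = 6), and the types overlapped.

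**Figure D4:**
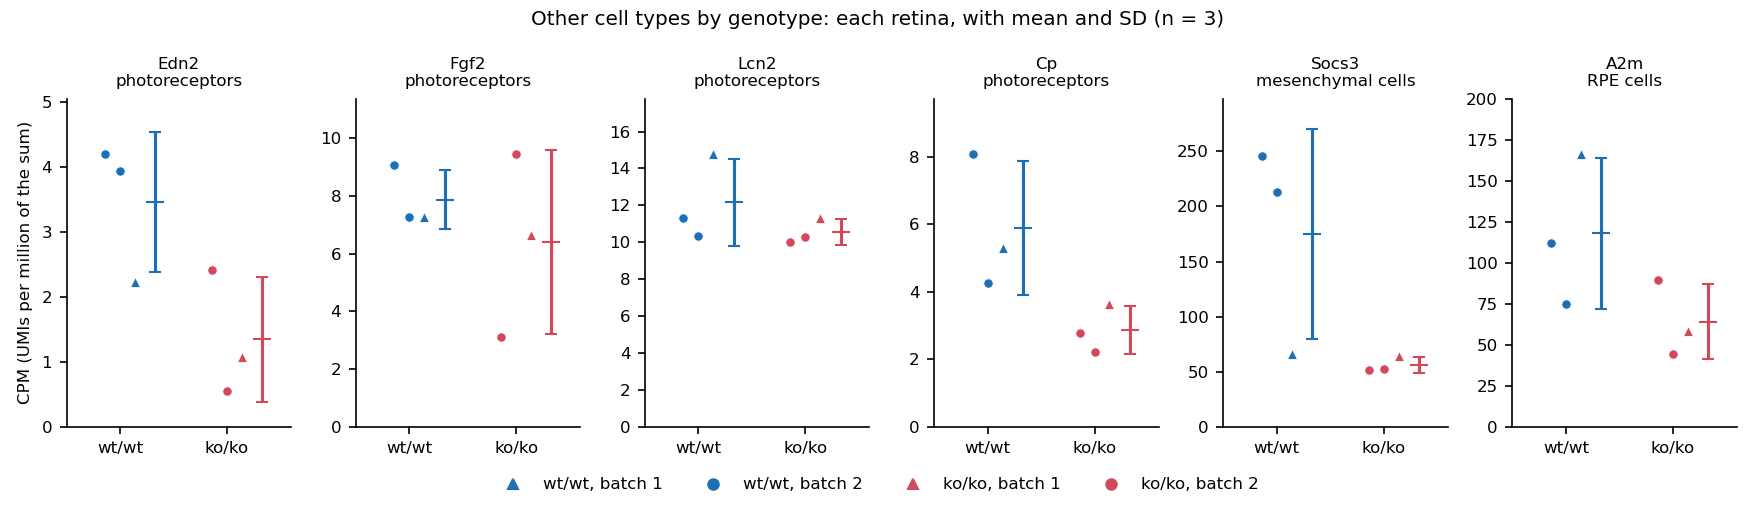
Levels of Edn2, Fgf2, Lcn2 and Cp in photoreceptors, Socs3 in mesenchymal cells and A2m in RPE cells. The y axis gives CPM from 0, points are single retinas with shape for batch, and the bar is the mean with SD (n = 3). Cp in photoreceptors and Socs3 in mesenchymal cells do not overlap between genotypes, and the wt/wt retina of batch 1 lies beside the ko/ko retinas for Socs3.

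The 94 other genes of the pathways, fixed in 9 lists, were not called by genotype in glia or photoreceptors either. Over all genes tested, 0 of 4130 in glia and 0 of 13053 in photoreceptors were called, so nothing is read from this about the lists. In glia 23 of the 94 genes were tested, 14 had a positive log2 fold change, with a median of 0.07 against -0.02 over all tested genes, and 0 were called. In photoreceptors 29 were tested and 7 were positive, with a median of -0.17 against -0.01 over all genes, and 0 were called. Of the cytokine receptors, Cntfr was the highest in glia (326 ± 39.7 CPM in wt/wt, 338 ± 51.3 CPM in ko/ko, SD, n = 3 each), followed by the shared gp130 subunit Il6st. Their ligands Il6 and Osm had 0 UMIs in glia, and Ctf1, Cntf and Clcf1 were the most abundant of the 8 ligands. Jak1 was the highest of the Janus kinases, and Pias1, Pias3 and Ptpn11 led the STAT inhibitors. Among the filaments and linkers Plec, Lmna and Synm were found at 12.4 to 26.2 CPM on average, while Des, Prph and Nefm had 0 UMIs. Spry2, Fgfr1 and Fgf9 led the FGF list, and Slc22a17 and Lrp1 the list of partner receptors and paralogs. Of the other reactive glia genes, Crym was the highest, followed by Cebpd and S1pr3. Cebpd, a stress-induced transcription factor, stood at 183 ± 13.6 CPM for wt/wt and 287 ± 83.1 CPM for ko/ko (mean ± SD, n = 3 each), a difference that edgeR put at 0.60 on the log2 scale (adjusted p = 1.00). The other genes tested from that list gave smaller log2 values, at 0.23 for Tspo, 0.16 for Crym, 0.07 for Vcam1, -0.02 for Cd44 and -0.22 for S1pr3. Spp1, Ccl2, Steap4, Cd109 and Aspg from that list had 0 UMIs in glia.

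**Figure D5:**
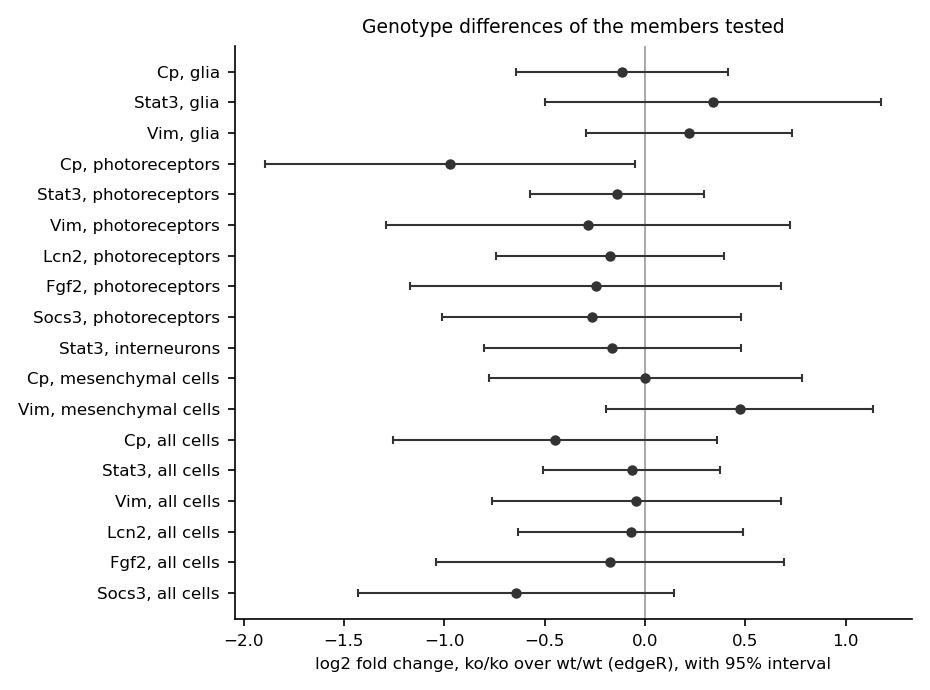
Fitted log2 fold changes of ko/ko over wt/wt for each gene and cell type tested in edgeR, with all cells summed as the last set. The x axis is log2, and bars are 95% intervals. The interval of Cp in photoreceptors (-1.89 to -0.05) is the only one that excludes 0, and its adjusted p was 1.00.

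Batches differed over the series as a whole. Of the genes tested, 5.53% were called in glia, 5.49% in photoreceptors, 12.5% in interneurons, 3.37% in mesenchymal cells, 6.86% in RPE cells and 15.2% in all cells summed. Of the 10 genes, 0 were called, out of 3 tested in glia, 7 in photoreceptors, 1 in interneurons, 4 in mesenchymal cells and 9 in all cells. Cp came closest, with 63.8, 37.3, 29.4 and 36.5 CPM over all cells in the batch 2 retinas and 80.1 and 61.2 CPM in the batch 1 retinas. The log2 fold change of batch 1 over batch 2 was 0.75 (standard error 0.22, adjusted p = 0.0532 by edgeR), and the batches overlapped. Within glia the same comparison for Cp gave 0.05 (standard error 0.20, adjusted p = 0.91 by edgeR). In 5 of the 36 pairs of gene and cell type the 2 batch 1 retinas did not overlap the 4 batch 2 retinas, namely Gfap and Fgf2 in glia, Lcn2 in photoreceptors and Vim and Socs3 in interneurons. Over all genes the share of pairs without overlap by batch was 16.9%, or 25.3% of those with at least 10 UMIs. Vim in interneurons rested on 45 UMIs of wt/wt retina 3, in 14 cells, and was called with ko/ko retina 3 left out. Cp over all cells was called without wt/wt retina 1 and without ko/ko retina 1, with 0.95 and 0.59 as the highest and lowest log2 values over the 6 omissions. Without the cells of fewer than 500 UMIs or more than 10% mitochondrial UMIs the log2 value over all cells was 0.38 (adjusted p = 0.29 by edgeR).

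Some partner genes in glia did differ between batches. Spry2, an inhibitor of FGF signalling, fell by 1.04 on the log2 scale in batch 1 (standard error 0.21, adjusted p = 0.00727 by edgeR). Dusp6, another such inhibitor, fell by 1.24 (standard error 0.35, adjusted p = 0.0429 by edgeR). Of all genes tested in glia, 4.09% were called lower in batch 1 and 1.44% higher. In glia S100b of the astrocyte list was lower in batch 1 as well, at -1.65 on the log2 scale (adjusted p = 0.00232 by edgeR). It was 1 of 2 astrocyte genes with enough counts for the fit, and the other, Aldh1l1, gave 0.057 (adjusted p = 0.94 by edgeR). In photoreceptors 1 of 34 was called, Atf3, lower in batch 1, where 3.11% of all genes were called lower and 2.39% higher. Over all cells 10 of 57 were called higher, among them Nefl, Ina and Cntfr, and 2 lower, against 8.57% and 6.62% of all genes. Interneurons, in which Nefl and Ina were highest, numbered 610 and 536 in the batch 1 retinas and 160 to 276 in the batch 2 retinas, and 6 of 11 interneuron markers rose over all cells in the same comparison. These were the amacrine cell genes Gad1 (5.82), Gad2 (4.58), Tfap2b (3.91), Slc32a1 (2.96) and Slc6a9 (1.83) and the bipolar cell gene Grm6 (1.01), in log2 values. The other 5 were not called, among them the bipolar cell genes Prkca (-0.44), Cabp5 (0.32) and Trpm1 (0.33). Glia, in which Cntfr was highest, numbered 269 and 225 against 87 to 171. The part of these cell numbers in the 10 calls was not tested. Gfap in glia was lower in the same 2 retinas (15.2 and 19.9 CPM against 34.4 to 93.7 CPM) but had too few counts for the fit over 6 retinas. With ko/ko retina 1 left out Gfap passed the filter in glia and was called. The highest values left were 38.2 and 93.7 CPM, from 10 and 14 UMIs in wt/wt retinas 1 and 2, both of batch 2. Gfap thus entered the fit through the batch where it was high, and nothing is read from this call. Over all cells Gfap had a log2 fold change of -0.85 between batches (standard error 0.42, adjusted p = 0.20 by edgeR). The depth of the sums, their mitochondrial share and the numbers of glia and interneurons also differed between batches, and these cannot be told apart.

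The genes most like each member were sought over the 30 sums of 5 types and 6 retinas, on log2(CPM + 10), among 11400 genes with at least 200 UMIs. The sums share libraries, depth and cell types, so these correlations (Pearson r) are given as a description. For Vim these were Clic1 (r = 0.96), S1pr1 (r = 0.95) and Pdgfrb (r = 0.94), and for Cp they were Nbl1, S1pr3 and Prex2 (each r = 0.98). For Socs3 they were Elf1 (r = 0.94), Ifi30 (r = 0.94) and Plek (r = 0.93), and for Stat3 Diaph1 (r = 0.96), Ablim1 (r = 0.96) and Akt1 (r = 0.95). Lcn2 had weaker matches in 2610017A05Rik (r = 0.83), Ptpru (r = 0.80) and Enkur (r = 0.78). The other 5 genes had under 200 UMIs and were not compared.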

How the data were processed

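The authors counted exonic reads per cell and gene with Cell Ranger 3.1.0 on the mouse genome GRCm38, and the deposited table holds raw UMI counts of 52636 genes in 46375 cells, with the study's cell types. All cells were kept and no doublet caller was run. UMIs were summed per retina and type, and levels are CPM of these sums without scaling factors. Genotype and batch were tested with edgeR 4.0.16 (TMM, filterByExpr, quasi-likelihood test, Benjamini-Hochberg over all genes tested, called at an adjusted p under 0.05), with genotype as a covariate in the batch test. The test of glia against photoreceptors had retina as a block. Single values were compared by two-sided exact permutation over 6 retinas (scipy 1.17.1). Intervals of counts and shares are exact Poisson and binomial 95% intervals, and a count of 0 is read as at most 3 counts. limma 3.58.1 (voom), DESeq2 1.42.0, other filters, cells and covariates were alternatives. Scripts were tested on simulated data. Named beside the 10 genes are, from each pathway list, up to 3 called genes and the 3 highest in glia, and for each member with 200 UMIs the 3 most alike genes. Genes at 0 UMIs and the genes of cell type markers were named after their values were seen. The members and lists were chosen with earlier results of these data known. Cell identifiers were unique in the table, and droplet barcodes shared between libraries were not analysed here. A withheld item of the pathway lists is not reported here.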

Additional observations from a re-analysis of the deposited data

How the results depend on the processing

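No member was called by genotype under any alternative run, and for the 18 fold changes by genotype that the main filter let through the lowest adjusted p was 0.41. Of 158 alternative fold changes by genotype 150 kept their direction, as did 145 of 160 by batch (5 more also passed the threshold), 20 of 21 for glia against photoreceptors and 37 of 40 differences in shares (2 turned and 1, for Edn2, became 0). Counts over all genes moved more. By genotype and with no filter on low counts, 1 gene was called in photoreceptors, 1 in interneurons, 28 in mesenchymal cells, 3 in RPE cells and 1 in all cells, against 0. With batch as a covariate, edgeR called 21 genes in mesenchymal and 3 in RPE cells and limma-voom 35 and 5. DESeq2 called 1 in RPE cells. By batch DESeq2 called 56 genes in glia, 437 in interneurons, 22 in mesenchymal and 7 in RPE cells. Without a filter 2295 were called in photoreceptors and 0 in RPE cells, and without a genotype term 1143 in photoreceptors, 18 in mesenchymal and 11 in RPE cells. limma-voom called 44 in mesenchymal cells, leaving out the 5% of cells with the most UMIs gave 26 there, and keeping only cells of 500 or more UMIs and no more than 10% mitochondrial UMIs (the stricter cells) gave 1452 in all cells. Without a filter 1 member (Vim) was called by batch in interneurons. Cp over all cells, at 0.75, was called as the 1 member in limma-voom (0.77), DESeq2 (0.75), with RLE factors (0.75), without a filter (0.81) and without the 5% of cells with the most UMIs (0.80), but fell to 0.38 in the stricter cells and was not called there.

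The signs of small fold changes turned. By batch in glia, Stat3 was 0.11 and Vim 0.15 without a filter, and Vim was 0.092 without the 5% of cells. In photoreceptors Fgf2 was 0.033 in limma-voom, 0.021 in DESeq2, 0.013 with RLE factors, 0.28 in the stricter cells and 0.14 without the 5% of cells, and Socs3 was -0.17 in the stricter cells. Over all cells Stat3 was -0.045 in the stricter cells. By genotype Cp in mesenchymal cells was -0.039 in DESeq2, -0.026 with RLE factors and -0.035 in the stricter cells. Vim over all cells was 0.043 in limma-voom, 0.016 with batch in limma-voom and 0.062 in the stricter cells, and Lcn2 was 0.053 without the 5% of cells. Lcn2 in glia against photoreceptors was 0.30 in limma-voom. Thinned to 500 UMIs, the share of glia with Gfap was 0.022 points higher in ko/ko and that with Cp 0.21 points higher. The causes were not tested.

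With the replicate number as a block, edgeR called 26 genes by genotype in mesenchymal and 4 in RPE cells, 0 members were called, and Vim over all cells was 0.032. Correlations between retinas of equal number differed by cell type, and they do not show that the numbers pair the retinas. Deviations of wt/wt 1 and ko/ko 1 correlated at 0.031 in glia, -0.050 in photoreceptors and 0.056 over all cells, whereas in interneurons (0.21, 0.52 and 0.70), mesenchymal cells (0.19, 0.21 and 0.60) and RPE cells (0.18, 0.33 and 0.27) all 3 pairs of equal number were above 0.1. Retinas numbered 3 share batch 1, and wt/wt 1 correlated more closely with ko/ko 2 than with ko/ko 1 in each of these sets except RPE cells.

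Leaving out 1 retina at a time, genes called by genotype ranged from 0 to 7 in mesenchymal cells (7 without ko/ko 2), 0 to 2 in RPE cells (2 without wt/wt 3) and 0 to 1 for glia against photoreceptors, and 0 in the other sets. Genes called by batch ranged in glia from 32 to 1068, in photoreceptors from 20 to 4437, in interneurons from 364 to 2359, in mesenchymal cells from 24 to 88, in RPE cells from 7 to 30 and in all cells from 152 to 6341, and each of these maxima except that in mesenchymal cells came without ko/ko 1. Members called by batch ranged from 0 to 1 in glia (Gfap, without ko/ko 1), interneurons (Vim, without ko/ko 3) and all cells (Cp, without wt/wt 1 or ko/ko 1). Leaving out a batch 1 retina leaves that batch 1 library, which is assumed to vary like the others. Log2 fold changes that changed sign ranged by genotype from -0.26 to 0.12 for Cp in glia, -0.27 to 0.0071 for Lcn2 and -0.61 to 0.077 for Fgf2 in photoreceptors, -0.27 to 0.23 for Cp in mesenchymal cells, and -0.16 to 0.053 for Stat3, -0.32 to 0.26 for Vim and -0.39 to 0.094 for Fgf2 in all cells. By batch they ranged from -0.052 to 0.24 for Cp, -0.30 to 0.19 for Stat3 and -0.17 to 0.15 for Vim in glia, -0.20 to 0.60 for Cp, -0.096 to 0.64 for Vim and -0.27 to 0.32 for Fgf2 in photoreceptors, -0.37 to 0.10 for Cp, -0.76 to 0.017 for Stat3 and -1.73 to 0.26 for Socs3 in mesenchymal cells, and -0.013 to 0.17 for Stat3, -0.00041 to 0.095 for Lcn2 and -0.18 to 0.28 for Fgf2 in all cells. For glia against photoreceptors they were -0.47 to 0.74 for Lcn2, -1.03 to 0.49 for Fgf2 and -0.12 to 0.97 for Socs3. Differences in shares of glia ranged from -0.18 to 0.26 points for Lcn2, -0.30 to 0.45 for Serpina3n, -0.41 to 0.47 for Fgf2, -3.21 to 4.41 for Cp and -0.58 to 0.36 for Socs3. All glia held only 18 Socs3, 23 Fgf2 and 8 Lcn2 UMIs. The counts of 0, of Fgf2 in ko/ko retina 2 and of Lcn2 in wt/wt retina 2, allow up to 20.6 and 20.1 CPM. Differences in these 3 genes in glia were not detectable at this depth.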

Other observations

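Summed levels of the pathway lists stood apart by genotype in 6 of 45 pairs of list and cell type, which is a description with no test. Among single genes with at least 10 UMIs in a type the share without overlap was 7.78%, sums of a list rest on more counts than single genes, and nothing is read from the 6 pairs about these lists. In glia the STAT inhibitors, led by Pias1 and Pias3, summed to 153 to 163 CPM in wt/wt retinas and to 174 to 282 CPM in ko/ko retinas. In mesenchymal cells the gp130 receptors summed to 320 to 417 CPM in wt/wt and 179 to 210 CPM in ko/ko, beside the lower share of microglia-led cells there, and the partner receptors and paralogs to 77.2 to 107 CPM and 64.2 to 76.8 CPM. The FGF list in RPE cells was lower in ko/ko (176 to 447 CPM against 636 to 945 CPM), in 10 to 25 cells per retina. The endothelin list in interneurons was higher in ko/ko (70.9 to 97.7 CPM against 31.3 to 61.1 CPM), and the partner receptors in photoreceptors were lower (17.3 to 21.2 CPM against 22.8 to 23.96 CPM).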
